A study of Mus musculus with 4 samples.

Results

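The genes described here are the tumor suppressor p53 (Trp53), its antagonist Mdm2 and 8 direct p53 target genes, measured on Affymetrix Mouse Genome 430 2.0 arrays in ureter tumor and normal ureter of mice. Members were the probe sets that the platform annotation assigned to a single gene among these 10. It gave 18 probe sets of 8 genes, Mdm2, Cdkn1a, Ccng1, Plk2, Bbc3, Aen, Phlda3 and Sesn2, out of 18193 genes measured. No probe set was assigned to Trp53 or Bax in the annotation used here, so these 2 genes were not analysed here. Every statement on p53 below therefore concerns genes around it and not its own transcript.

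There were 2 ureter tumor samples and 2 normal ureter samples, each on its own array and numbered as biological replicate 1 or 2. The labels describe the tumors as urothelial carcinoma, a cancer of the epithelium that lines the urinary tract, and the study asked what part Notch signaling plays in it. All samples carry the same description, which is ureter epithelium of C57Bl/6 mice aged 6 to 8 weeks and R26rtTA;teto-Cre;Ncstnf/f animals in which doxycycline, begun at 3 weeks of age and kept up for 1 week, induced recombination. Nicastrin, the product of Ncstn, belongs to the gamma-secretase that releases the active part of Notch receptors. The sources used here do not say which samples carried the recombined allele or how many animals stand behind each sample. R26 is a locus active in most tissues, so this system does not by itself limit Cre to the urothelium.

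p53 is a transcription factor that is kept at a low level because Mdm2, a ubiquitin ligase, marks it for degradation. DNA damage and other stress release p53, which then switches on genes that halt the cell cycle, trigger apoptosis or adjust metabolism, and also Mdm2 itself, closing a feedback loop. Loss of p53 function is a common event in invasive urothelial cancer of humans. Because much of its control acts on the protein, transcript levels of its targets are often read as a proxy of its activity.

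The arrays of the 2 tumors differed more from each other than the normal arrays did. Of the 13046 genes tested, the tumor arrays were at least 4-fold apart in 9.86% and the normal arrays in 1.15%. Umbrella cell genes of the labelled tissue had a summed signal of 863 and 758 on the tumor arrays, against 25462 and 44270 on the normal arrays. All 6 of them lay lower in both tumors, and 3 fell in the limma test. Basal urothelial genes summed to 102200 and 5636 in tumor replicates 1 and 2, against 8195 and 12067 in normal ureter, with 0 of 5 past the test. Their genes split in tumor replicate 2. Krt15 (1523) and Krt14 (1088) lay above both normal arrays there, Krt5 (628) and Trp63 (440) below both, and Cd44 (1957) between them. Kidney tubule genes summed to 1447 and 93787 in tumor replicates 1 and 2, against 10299 and 16509 in normal ureter, with 0 of 5 past the test. Macrophage genes ranged from 31672 to 39515 in tumors and from 7665 to 9222 in normal ureter in summed signal, and fat cell genes from 6127 to 36095 in tumors and from 219855 to 240184 in normal ureter. Of these, 2 of 6 macrophage genes rose and 1 of 4 fat cell genes fell in the test. Plasma cell genes summed to 69535 and 44715 in tumors, against 9287 and 11870 in normal ureter, and 1 of 5 rose. Neutrophil genes summed to 9607 and 1049 in tumors, against 307 and 158 in normal ureter, with 0 of 3 past the test. Smooth muscle genes summed to 12046 and 19595 in tumors, against 47707 and 37287 in normal ureter, and 1 of 5 fell. Between the tumors, Acta2 (9957 and 18209) and Des were higher in replicate 2, but Myh11, Cnn1 and Actg2 were higher in replicate 1. No tested marker of these lists was at 0 on any array, and their part in the results below was not tested except where a value is given.

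No member passed the comparison of tumor with normal ureter. The test was limma on log2(signal + 16) with Benjamini-Hochberg adjustment over all genes, and 0 of the 8 members reached an adjusted p of 0.05, where 1.43% of all genes did. At an unadjusted p under 0.05 there were 2 members, Cdkn1a and Aen, each read at its brightest probe set, where 21.5% of all genes stood. With every probe set tested, 4 of the 15 member probe sets above the filter limit stood there, as did 4948 of all 22951. Besides the brightest of Cdkn1a and Aen, these were Ccng1 1450016_at and 1450017_at, both lower in tumors. The signal of 3 members, Cdkn1a, Plk2 and Aen, was higher on both tumor arrays than on both normal arrays, and 29.4% of all genes showed that order. The signal of 1 member, Phlda3, was lower on both tumor arrays, as in 27.7% of all genes, and the groups overlapped in the other 4. Counted by probe set, 15 of the 18 lay above the filter limit, 4 of these 15 were higher and 3 lower on both tumor arrays, where 27.3% and 29.3% of all probe sets tested were, and 0 passed when every probe set was tested, where 1.56% did. The median difference was 0.11 over the members and 0.03 over all genes tested, on the log2 scale. The smallest p that an exact permutation test can give for 2 tumors and 2 normal samples is 0.333, and a member short of the threshold may still differ between these tissues.

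**Figure D1:**
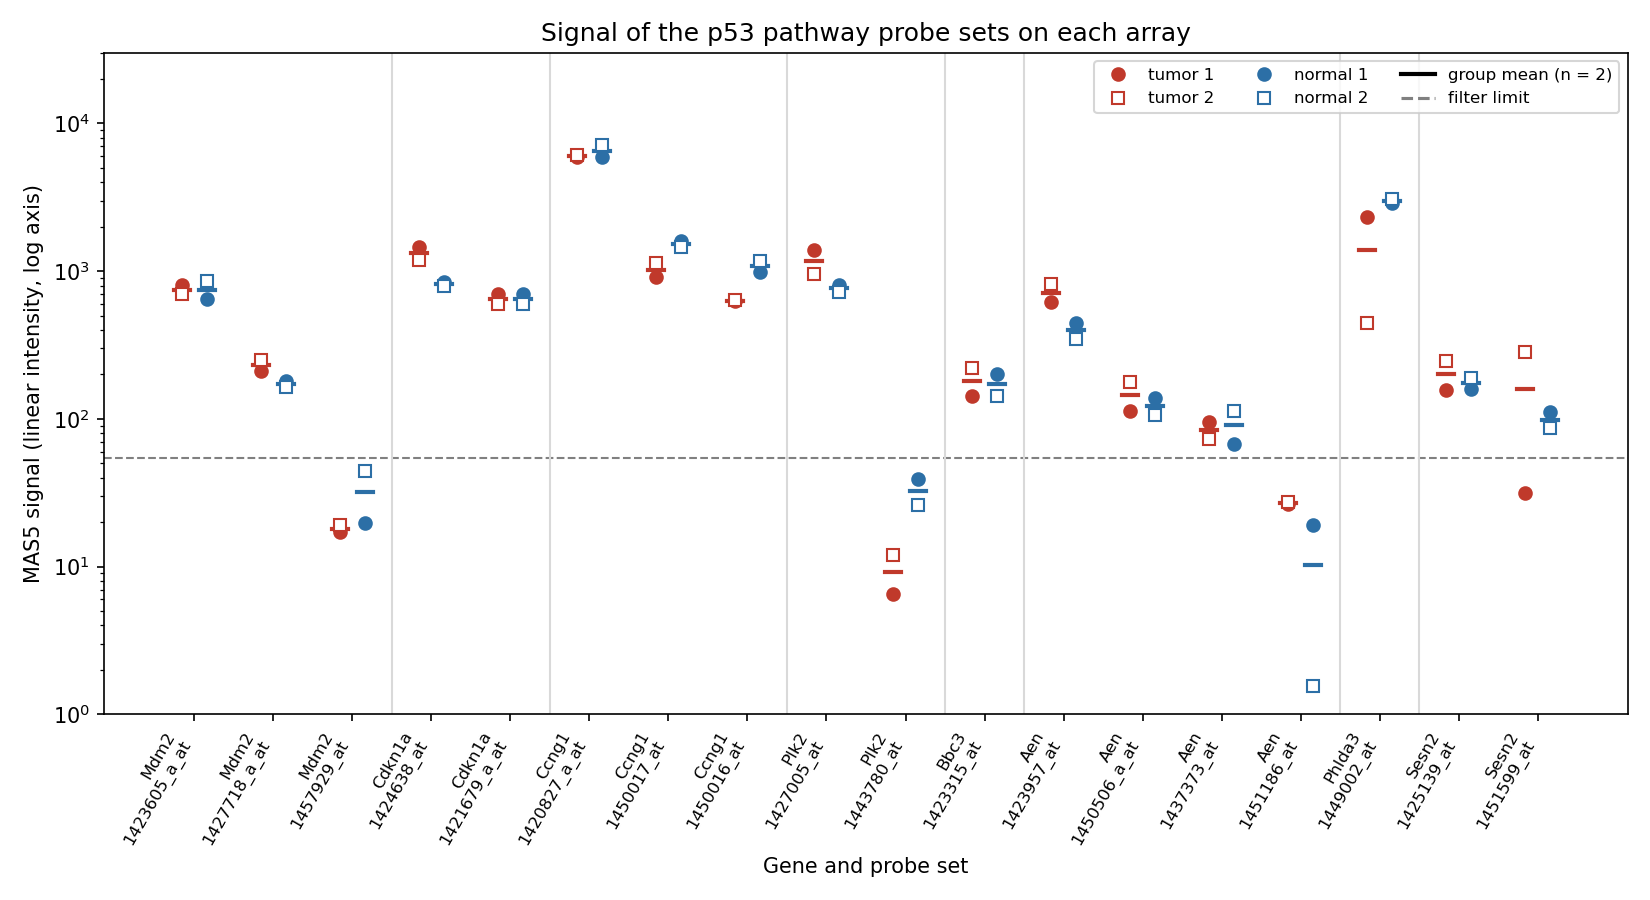
Signal of each of the 18 probe sets on each array, on a log axis, with tumor arrays in red and normal arrays in blue, bars for the mean of each group (n = 2) and a dashed line at the filter limit of 54.6. Cdkn1a 1424638_at, Plk2 1427005_at and Aen 1423957_at are higher on both tumor arrays, the tumor points of Phlda3 lie far apart, and 3 dim probe sets lie below the limit.

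Sequences upstream of 3 members are shown with their matches to the pattern that p53 binds, while binding itself was not measured. Cdkn1a and Ccng1 had the closest matches to the p53 response element within 250 bases upstream of an annotated start. Aen had a single unit of this element, as did Trp53, Mdm2 and Bax, whose sequences are not shown. That element is a pair of 10-base units, and its pattern reads the same on both strands, so each window was searched once. Sequences are from RefSeq, build GRCm38.p6, read 5′ to 3′ along the gene. Capitals mark the 20-base element in Cdkn1a and Ccng1, with no gap between its units, and a single 10-base unit in Aen.
Cdkn1a, chr17:29090729-29090978, plus strand: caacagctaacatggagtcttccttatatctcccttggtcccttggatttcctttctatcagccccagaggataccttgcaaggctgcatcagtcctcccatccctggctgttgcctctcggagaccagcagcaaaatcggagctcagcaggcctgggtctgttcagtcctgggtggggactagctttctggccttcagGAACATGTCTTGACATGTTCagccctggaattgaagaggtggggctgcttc
Ccng1, chr11:40755287-40755536, minus strand: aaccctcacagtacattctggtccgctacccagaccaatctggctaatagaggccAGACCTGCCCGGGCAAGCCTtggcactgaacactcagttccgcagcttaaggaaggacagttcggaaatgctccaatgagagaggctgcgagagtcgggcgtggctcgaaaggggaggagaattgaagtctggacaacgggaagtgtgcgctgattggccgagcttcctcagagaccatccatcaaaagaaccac
Aen, chr7:78895808-78896057, plus strand: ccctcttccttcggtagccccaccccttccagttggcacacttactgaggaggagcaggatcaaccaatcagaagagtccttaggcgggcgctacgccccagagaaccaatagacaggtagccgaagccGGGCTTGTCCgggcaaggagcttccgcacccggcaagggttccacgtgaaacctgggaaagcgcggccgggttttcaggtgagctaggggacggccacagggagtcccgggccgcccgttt

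The Cdkn1a element begins 51 bases and the Ccng1 element 195 bases before the annotated start, and each departs from the pattern at 1 of 20 bases. A match that close stood in 25 of the 32851 windows searched, or 0.0761%. The Cdkn1a window belongs to the upstream of its 2 annotated starts, and the window of the other start held no 10-base unit. The window of another annotated Aen start held none either. At least 1 unit without a mismatch stood in 6 of the 14 windows of the 10 listed genes, namely in Trp53, Mdm2, Cdkn1a, Ccng1, Bax and Aen, against 7.13% of all windows. Plk2, Bbc3, Phlda3 and Sesn2 held none in these windows, which says nothing about p53 elements elsewhere in those genes. The listed genes were chosen as known p53 targets, so these matches describe them and test nothing.

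Mdm2, the ubiquitin ligase that restrains p53 and is itself a p53 target, gave nearly the same signal in both tissues. Its brightest probe set, 1423605_a_at, read 803 and 701 on the tumor arrays, against 650 and 852 on the normal arrays. The groups overlapped, and tumor minus normal was 0.01 in log2 units (SE 0.24, 95% interval from -0.65 to 0.67, n = 2 per group, limma adjusted p = 0.987). A second Mdm2 probe set, 1427718_a_at, read 211 and 250 in tumors and 181 and 165 in normal ureter, so both tumor arrays were above both normal arrays. Its difference was 0.38 (adjusted p = 0.473 when every probe set was tested). Another Mdm2 probe set, 1457929_at, lay below the filter limit with 17.1 and 19.1 in tumors and 19.8 and 44.7 in normal ureter. The direction of the Mdm2 difference at 1423605_a_at turned to -0.042 under quantile normalization and was 0.21 after median centring, which added 0.20 to every difference.

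Read at the brightest probe set of each, the cell cycle targets Cdkn1a and Plk2 were higher on both tumor arrays, while Ccng1 overlapped between the groups. Other probe sets of these genes, given below, departed from this. Cdkn1a encodes p21, the inhibitor of cyclin-dependent kinases through which p53 halts the cell cycle. Its probe set 1424638_at read 1462 and 1193 in tumors, against 841 and 795 in normal ureter, and the lowest tumor value exceeded the highest normal one. The difference was 0.68 (SE 0.20, 95% interval from 0.12 to 1.24, n = 2 per group, limma adjusted p = 0.181). The mean signal was 1328 ± 190 in tumors and 818 ± 32.8 in normal ureter (SD, n = 2), a ratio of 1.62. Without tumor replicate 2 the difference was 0.83 and passed the test (limma adjusted p = 0.00332), as 42.2% of all genes did. Without tumor replicate 1 it was 0.54 and did not pass (limma adjusted p = 0.0592).

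The other probe set of Cdkn1a did not repeat this. It is 1421679_a_at, and it read 696 and 599 in tumors and 702 and 596 in normal ureter, a difference of -0.0033 on the log2 scale (adjusted p = 0.995 when every probe set was tested). Each tumor array thus matched a normal array to within a few units of signal at this probe set. Averaging the probe sets of Cdkn1a gave a difference of 0.34. The files do not say which transcripts of Cdkn1a each probe set covers.

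Ccng1 encodes cyclin G1, a p53 target that recruits a phosphatase to Mdm2. Its brightest probe set, 1420827_a_at, read 5935 and 6132 in tumors, against 5976 and 7107 in normal ureter. The groups overlapped and the difference was -0.11 (SE 0.19, 95% interval from -0.63 to 0.41, limma adjusted p = 0.772), or 0.085 after median centring and -0.49 averaged over its probe sets. The other Ccng1 probe sets were lower on both tumor arrays. At 1450016_at the signal was 625 and 639 in tumors, against 989 and 1178 in normal ureter. That difference was -0.76 (SE 0.21, adjusted p = 0.156 when every probe set was tested). At 1450017_at it was 909 and 1129 in tumors and 1597 and 1469 in normal ureter, a difference of -0.59 (SE 0.21, adjusted p = 0.22 when every probe set was tested). Both of these differences kept their sign under quantile normalization and median centring. The annotation gives all 3 Ccng1 probe sets the same source sequence, so they differ in the probes chosen from it.

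Measures of RNA integrity differed between tumor and normal arrays in opposite directions. The ratio of 3′ to 5′ signal of the control probe sets for Gapdh was 1.51 and 1.44 on the tumor arrays, against 0.92 and 0.923 on the normal arrays, while that for Actb was 2.47 and 2.63 on tumor arrays and 2.9 and 2.82 on normal arrays. The part of this in the disagreement between probe sets of Cdkn1a or Ccng1 was not tested.

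Plk2 encodes a polo-like kinase that p53 induces after damage. At 1427005_at it read 1391 and 959 in tumors, against 805 and 725 in normal ureter, with both tumor arrays above both normal arrays. The difference was 0.59 (SE 0.26, 95% interval from -0.13 to 1.31, n = 2 per group, limma adjusted p = 0.297). Tumor replicate 1 alone stood 0.85 above the normal mean and tumor replicate 2 stood 0.32 above it. Without tumor replicate 2 Plk2 was among the 42.2% of genes that passed (limma adjusted p = 0.00321), and without tumor replicate 1 it did not pass (limma adjusted p = 0.285). A dim probe set of Plk2, 1443780_at, read 6.5 and 11.9 in tumors and 39.4 and 26 in normal ureter, under the limit on every array, and averaging both turned the difference to -0.18.

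**Figure D2:**
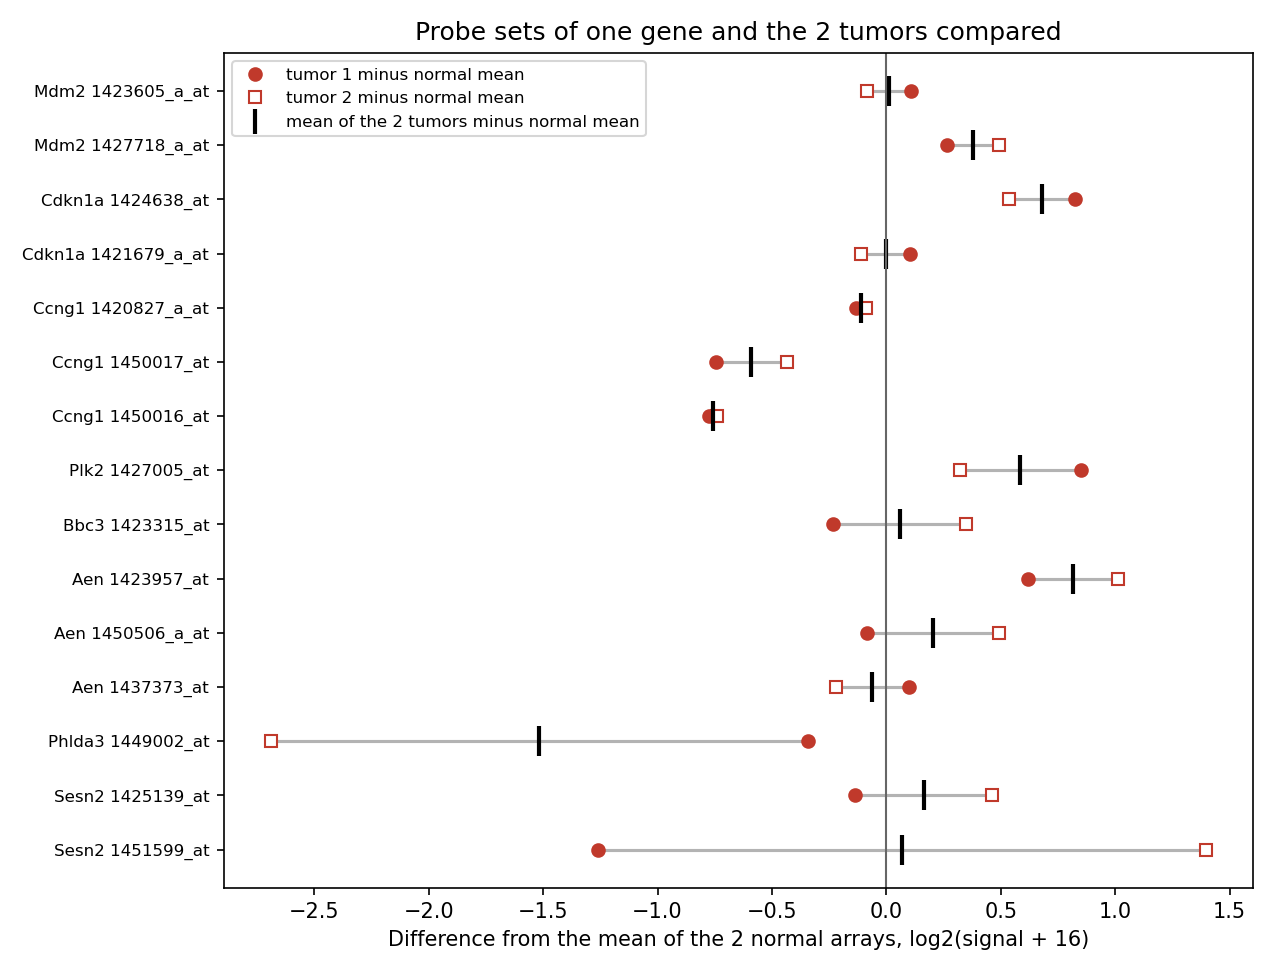
Difference of each tumor array from the mean of the 2 normal arrays, as log2(signal + 16), for the 15 probe sets above the filter limit, with a black tick at the mean of both tumors. Cdkn1a, Ccng1 and Aen each have probe sets near 0 and others away from it, and Phlda3 and Sesn2 1451599_at show the widest gaps between the tumors.

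The apoptosis targets did not move together. Aen encodes a nuclease that p53 induces during apoptosis. Its brightest probe set, 1423957_at, read 616 and 815 in tumors, against 448 and 350 in normal ureter, so the groups did not overlap. The difference was 0.81 (SE 0.27, 95% interval from 0.06 to 1.57, n = 2 per group, limma adjusted p = 0.209), and the mean was 715 ± 141 in tumors and 399 ± 68.9 in normal ureter (SD, n = 2). Without tumor replicate 1 the difference was 1.01 and passed (limma adjusted p = 0.00627), as 32.9% of all genes did. Without tumor replicate 2 it was 0.62 and did not pass (limma adjusted p = 0.0736).

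Of the other Aen probe sets, both above the limit overlapped between the groups. At 1450506_a_at Aen read 114 and 178 in tumors and 138 and 107 in normal ureter. At 1437373_at it read 95.6 and 73.3 in tumors and 68.2 and 113 in normal ureter. Their differences were 0.20 and -0.06, the last of which was 0.12 under quantile normalization. The fourth Aen probe set, 1451186_at, stayed under the limit on every array, with 26.6 and 27.6 in tumors and 19.1 and 1.55 in normal ureter. There both tumor arrays were above both normal arrays, as at 1423957_at, with a difference of 0.80. Averaged over all its probe sets, Aen had a difference of 0.44.

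Bbc3 encodes PUMA, a BH3-only protein through which p53 triggers cell death at mitochondria. It read 143 and 221 in tumors at 1423315_at, against 202 and 143 in normal ureter. The tumor values spanned a range similar to the normal ones, and the difference was 0.06 (SE 0.38, 95% interval from -0.98 to 1.10, n = 2 per group, limma adjusted p = 0.948). That interval does not exclude a change of about 2-fold in either direction.

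Phlda3 encodes a pleckstrin homology protein, induced by p53, that blocks the activation of the kinase Akt. It had the largest difference of the 8 members, read from its single probe set 1449002_at. The signal was 2343 and 448 in tumors, against 2879 and 3083 in normal ureter. Both tumor arrays lay below both normal arrays, but tumor replicate 1 was close to them and tumor replicate 2 was far lower. The difference was -1.52 (SE 0.84, 95% interval from -3.81 to 0.78, n = 2 per group, limma adjusted p = 0.373), made up of -0.34 in tumor replicate 1 and -2.69 in tumor replicate 2. Without tumor replicate 1 it passed (limma adjusted p = 1.17e-08), as 32.9% of all genes did, and without tumor replicate 2 it did not (limma adjusted p = 0.109). The tumors were 5.23-fold apart in this gene and the normal arrays 1.07-fold. Several marker sums also differed between tumor replicates 1 and 2. They were 33.6-fold higher in tumor replicate 1 for T and NK cells, 22.3-fold for mast cells, 18.1-fold for basal urothelium, 9.16-fold for neutrophils, 5.89-fold for fat cells and 2.20-fold for fibroblasts. Such sums follow their brightest genes. In the T and NK cell list, Gzma read 15262 and 69.4 in tumor replicates 1 and 2, and Cd3e 145 and 65.1. Cd8a alone of that list was higher in tumor replicate 2 (62.2 and 67.2), as was Col1a1 alone of the fibroblast genes (1740 and 1979). Kidney tubule markers were 64.8-fold higher in tumor replicate 2. The part of these marker sums in the Phlda3 values was not tested. In bulk tissue, fewer cells of a type and less RNA per cell cannot be told apart.

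Sesn2, the only member listed for stress metabolism, encodes a sestrin that restrains the growth kinase mTORC1. At 1425139_at it read 157 and 246 in tumors, against 158 and 191 in normal ureter. The groups overlapped, and the difference was 0.16 (SE 0.36, 95% interval from -0.82 to 1.14, limma adjusted p = 0.827). A second probe set, 1451599_at, read 31.7 and 285 in tumors and 112 and 86.5 in normal ureter, so the tumors lay on opposite sides of the normal arrays, 8.98-fold apart. Tumor replicate 2 was the higher of the tumors at both Sesn2 probe sets, as it was for Bbc3 and Aen 1423957_at, while Cdkn1a 1424638_at, Plk2 and Phlda3 were higher in tumor replicate 1.

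The genes whose pattern over the 4 arrays was closest to Cdkn1a were found by the Euclidean distance between log2 values centred on each gene's mean. They were Sec31a, Sec14l1 and Fndc3b, at distances of 0.04, 0.04 and 0.05 log2 units. Sec31a read 1256 and 1026 in tumors and 745 and 699 in normal ureter. There were 163 genes within 0.2 log2 units of Cdkn1a, so 4 arrays do not single out any of them. For Mdm2 the closest were Mysm1, Ap3m1 and Dpcd, and 185 genes lay within the same distance.

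Other genes of the p53 pathway likewise did not pass with all 4 arrays. Of 17 regulators of p53, 16 were tested and 0 passed, with 1 at an unadjusted p under 0.05, where 21.5% of all genes were. Both tumor arrays were above both normal arrays in 3 of them and below in 6, where 29.4% and 27.7% of all genes were, and their median difference was -0.09, against 0.03 for all genes. Kat5, an acetyltransferase that modifies p53, read 713 and 823 in tumors, against 425 and 460 in normal ureter, with a difference of 0.77 (limma adjusted p = 0.17). The phosphatase Ppm1d, itself a p53 target that dampens the damage response, read 540 and 469 in tumors, against 842 and 636 in normal ureter (-0.53, adjusted p = 0.318). Hipk2, a kinase that phosphorylates p53, read 2087 and 4490 in tumors and 5570 and 5653 in normal ureter (-0.87, adjusted p = 0.319). Atm, the kinase that senses double-strand breaks, read 484 and 472 in tumors and 629 and 654 in normal ureter (-0.41, adjusted p = 0.334). These 3 regulators were lower on both tumor arrays, and Kat5 was higher on both. Averaged over probe sets, the differences of Kat5, Ppm1d and Hipk2 shrank to 0.42, -0.16 and -0.46. Cdkn2a lay below the filter limit and was not tested.

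The p53 relatives Trp63 and Trp73 both had a higher signal in tumor replicate 1 than in tumor replicate 2. Trp63 encodes p63, which maintains basal cells of the urothelium, and is also one of the 5 basal markers above. It read 10167 and 440 in tumor replicates 1 and 2, against 2446 and 3847 in normal ureter, a difference of -0.52 (SE 1.59, limma adjusted p = 0.883). The tumors lay on opposite sides of the normal arrays. Without tumor replicate 1 the difference was -2.76 (limma adjusted p = 1.26e-07), and without tumor replicate 2 it was 1.72 (limma adjusted p = 3.78e-06), where 32.9% and 42.2% of all genes passed. Trp73 read 233 and 40 in tumor replicates 1 and 2, against 59.3 and 39.1 in normal ureter, and its groups overlapped too. Averaged over probe sets, Trp63 and Trp73 had differences of -0.95 and 0.23.

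Of 27 further p53 targets, 25 were tested and 0 passed, with 3 higher and 3 lower at an unadjusted p under 0.05, where 10.6% and 10.9% of all genes were. In 9 of them both tumors exceeded both normal samples, and in 7 both lay below, where 29.4% and 27.7% of all genes did. Their median difference was 0.20. The median over the same genes was 0.41 for tumor replicate 1 alone and -0.06 for tumor replicate 2 alone. The lists were made from textbook targets with earlier results of these data known.

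Among 9 further apoptosis targets Pmaip1 had the smallest p. Pmaip1 encodes NOXA, which like PUMA is a BH3-only protein. It read 1247 and 1038 in tumors, against 366 and 495 in normal ureter, a difference of 1.38 (SE 0.26, limma adjusted p = 0.1). The groups did not overlap. Apaf1, the core of the apoptosome, read 771 and 444 in tumors and 321 and 279 in normal ureter (0.93, adjusted p = 0.245). Ei24 was lower on both tumor arrays with 3006 and 4205, against 5375 and 6442 in normal ureter (-0.72, adjusted p = 0.215), and the death receptor Fas had a difference of -0.49 (adjusted p = 0.376).

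Among 11 further targets in growth arrest and metabolism, the signal was higher on both tumor arrays in 4 and lower in 2, beside 29.4% and 27.7% of all genes. The stress gene Gadd45a read 1084 and 1767 in tumors, against 437 and 844 in normal ureter (1.17, limma adjusted p = 0.245). Ddit4, an inhibitor of mTORC1 that also responds to hypoxia, read 3981 and 3914 in tumors, against 2572 and 1954 in normal ureter (0.81, adjusted p = 0.155). The tetraspanin Cd82 had a difference of 0.77 (adjusted p = 0.217), or 0.13 averaged over its probe sets. The epoxide hydrolase Ephx1 read 2235 and 2094 in tumors, against 3896 and 3362 in normal ureter (-0.74, adjusted p = 0.14). These 4 genes did not overlap between the groups.

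Of 5 targets in DNA repair and nucleotide supply, 3 were lower and 1 was higher on both tumor arrays, beside 27.7% and 29.4% of all genes, with a median of -0.21. The endonuclease Ercc5 read 542 and 491 in tumors, against 761 and 800 in normal ureter (-0.58, limma adjusted p = 0.22). For Ddb2, which binds damaged DNA, the difference was -0.41 (adjusted p = 0.482), and for Rrm2b, a subunit of ribonucleotide reductase, it was -0.21 (adjusted p = 0.601). The translesion polymerase Polk had one of 0.43 (adjusted p = 0.334). Averaged over probe sets, Ercc5 and Polk had differences of -0.14 and 0.08, and after median centring Ddb2 and Rrm2b had -0.22 and -0.01.

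**Figure D3:**
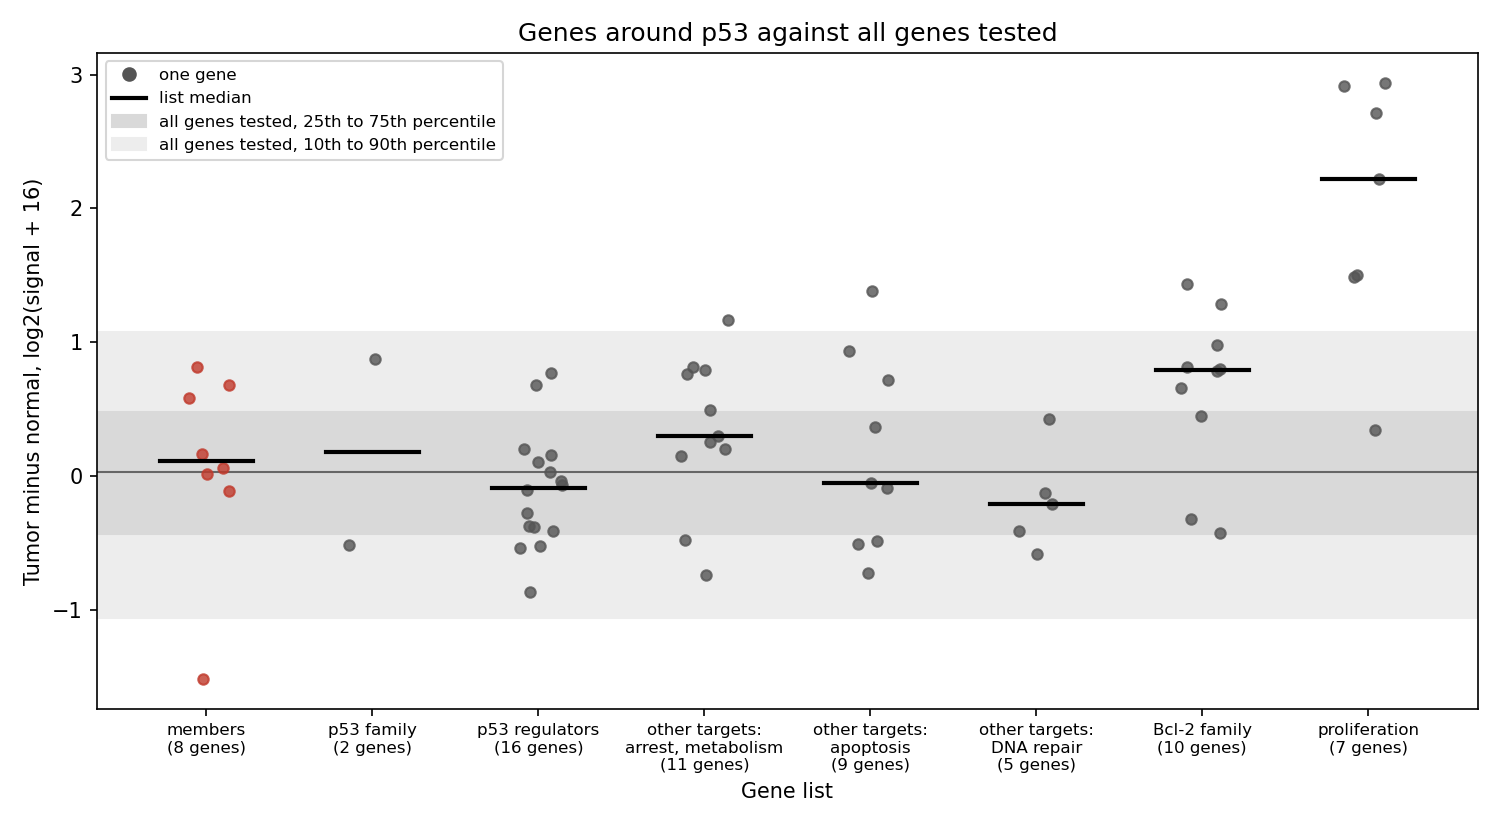
Difference of tumor minus normal ureter for every tested gene of the members (red) and of 7 further lists (grey), as log2(signal + 16), with a bar at each list median and shaded bands for the middle of all 13046 genes tested. The members spread around the median of all genes, and Phlda3 lies below the 10th percentile. The proliferation genes have the highest list median, though not every one of them lies above the shaded bands.

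Bax and Bbc3 act through the Bcl-2 family, which holds both guardians and executioners of the mitochondrial membrane. Of its 10 other listed genes 0 passed, and 4 were higher at an unadjusted p under 0.05, where 10.6% of all genes were. Both tumor arrays were above both normal arrays in 8 and below in 2, where 57.1% of all genes did not overlap, and the median was 0.79. Mcl1, which protects cells from death, read 9994 and 9941 in tumors, against 6096 and 5473 in normal ureter (0.79, SE 0.18, limma adjusted p = 0.129). Bik, a BH3-only killer, read 424 and 530 in tumors, against 126 and 215 in normal ureter (1.44, adjusted p = 0.149). Bmf and Bcl2l11, also BH3-only genes, had differences of 0.98 and 0.82 (adjusted p = 0.169 and 0.176). Genes that block death and genes that trigger it were both among the higher ones. Averaged over probe sets, the differences of Bmf, Bik and Bcl2l11 were 0.0064, 0.94 and 0.52.

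Proliferation genes, which p21 is known to hold down by halting the cell cycle, had a higher signal on both tumor arrays in 6 of 7, where 29.4% of all genes did. Of these 7 genes 0 passed and 6 were higher at an unadjusted p under 0.05, where 10.6% of all genes were, with a median of 2.22. Mki67 read 2479 and 866 in tumors, against 201 and 220 in normal ureter (2.71, SE 0.56, limma adjusted p = 0.117). Birc5, Top2a and Plk1 had differences of 2.91, 2.94 and 2.22 (limma adjusted p = 0.114, 0.128 and 0.127). That of Top2a was 0.88 averaged over its probe sets. The normal means of Birc5 and Plk1, 48.6 and 41.4, lay under the filter limit of 54.6. Both genes, counted in the 6 above, were thus tested only through their tumor signal. Tumor replicate 1 exceeded tumor replicate 2 in Mki67, Birc5, Top2a and Plk1, as it did for Cdkn1a at 1424638_at.

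**Figure D4:**
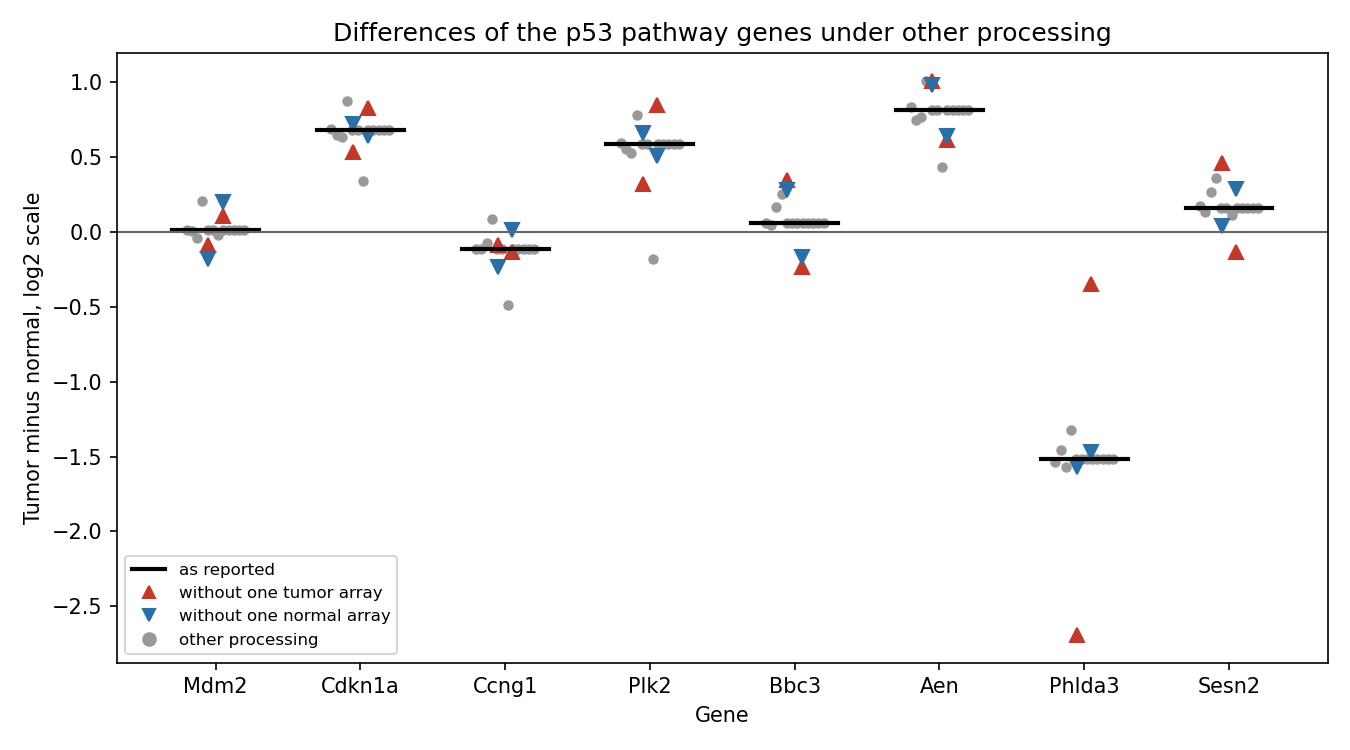
Difference of tumor minus normal ureter on the log2 scale for the 8 members as reported (black bars), without a tumor array (red), without a normal array (blue) and under the other processing (grey). Cdkn1a, Aen and Phlda3 stay on their side of 0 in every setting, Plk2 crosses it in 1, and Mdm2, Ccng1, Bbc3 and Sesn2 lie on both sides.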

How the data were processed

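The deposited values are linear intensity, and the submitters' processing notes name MAS5. The sources used here give neither its version nor detection calls. The mean of each array after trimming 2% at each end was 500, so values are relative to the rest of their array. The number of arrays limits precision. Of 45101 probe sets, 64 controls were left out and 34945 had 1 gene symbol, updated through RefSeq genes for 34741. Each gene was read from its probe set with the highest mean of log2(signal + 16), and the 13046 genes not below the 40th percentile of probe sets, a signal of 54.6, were tested. The pseudocount understates changes of dim genes. The comparison used limma 3.58.1 (R 4.3.3), two-sided, with an intensity trend, 2 residual and 2.11 prior degrees of freedom. P-values reflect only how far these samples spread, which may be technical. The procedure was tested on simulated data.

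Members and lists were chosen with earlier results of these data known. Named genes are all members, up to 4 genes with the smallest p of each list described, and the 3 genes most like Cdkn1a and Mdm2. Some marker genes are named besides, to show how the genes of a sum differ. Alternatives changed the pseudocount (1 and 64), scaling, filter, probe sets, variance model, block and call rule, or left out each array. A lone array is then assumed to vary like the other group. Plots used matplotlib 3.10.9.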

Additional observations from a re-analysis of the deposited data

How the results depend on the processing

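Of 128 member differences under 16 alternatives, 114 kept their direction and their side of the threshold, 4 passed it and 10 turned. Changes of filter, variance model, block or call rule left each member's difference as it was. So did testing every probe set, where each member was read at its brightest one. The direction could not turn in these settings, so the 114 overstate how stable the directions are. Turned values outside the arrays left out were Mdm2 at -0.042 under quantile normalization and -0.021 averaged over probe sets, Ccng1 at 0.085 after median centring and Plk2 at -0.18 averaged over probe sets. Leaving out each array gave -0.18 to 0.20 for Mdm2, -0.24 to 0.014 for Ccng1, -0.23 to 0.35 for Bbc3, -0.14 to 0.46 for Sesn2, -0.20 to 1.95 for Trp73 and -2.76 to 1.72 for Trp63. The count of members past the test was 0 under every other alternative and ranged from 0 to 2 with an array left out, Aen and Phlda3 without tumor replicate 1 and Cdkn1a and Plk2 without tumor replicate 2, 2 of 8 where 4298 and 5502 of 13046 genes passed. Of 26 other named genes, 6 passed by the 2-fold rule below (Pmaip1, Bik, Birc5, Mki67, Plk1 and Top2a). Under the other alternatives that kept all 4 arrays, 0 passed. At the 60th percentile filter only 23 of the 26 were tested, since Trp73, Birc5 and Plk1 fell below it. The count over all genes, 187, was 35 after median centring, 104 averaged over probe sets, 357 of 22951 probe sets tested singly, 2 without the intensity trend and 1880 when calls needed a 2-fold change with unadjusted p under 0.05. With an array left out it ranged from 0 (each normal array) to 5502. With the replicate number as a block, 0 genes and 0 members passed in limma, with 2253 genes and 0 members at an unadjusted p under 0.05. The block rests on a number only, since the deviations of same-numbered arrays correlated at 0.04 across genes in 2 pairs. The cause of these changes was not tested.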
